A study of Oryctolagus cuniculus with 30 samples.

Results

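Covered and uncovered wounds of the rabbit ear were compared 3 days after the epidermis had closed, using all arrays whose titles name a fully occluded or a non-occluded wound at that day. The comparison holds 11 of the 30 arrays of the series, 5 from covered wounds and 6 from uncovered wounds, and all 23369 non-control probes of a custom rabbit design. In covered wounds 1120 probes (9.07%) were higher than in uncovered wounds and 892 (7.23%) were lower, of 12342 tested at a limma adjusted p under 0.05. The falls were the larger changes: 471 of them and 263 of the rises reached 2-fold. The comparison asks how a wet or a dry surface alters the transcripts of new epidermis.

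The animals were female rabbits of the New Zealand White laboratory breed, anaesthetised with ketamine and xylazine and given buprenex against pain, in all groups alike. A double-bladed scalpel was used to cut grids of shallow incisions into the skin of both ears, and each grid was dressed with 1 layer of the clear adhesive film Tegaderm until new epidermis covered it 2 days after wounding. Covered wounds (left ear) then received 4 more layers of film, and uncovered wounds (right ear) had the film taken off. Both arms thus had the same wound and the same early film, and they differ in the cover from closure to harvest and in the side of the animal. The epidermis was lifted off the dermis with 0.5 M ammonium thiocyanate in 30 min, and 400 ng of total RNA per sample was labelled with the dye Cy3 for a 1-colour Agilent array. The series also holds unwounded skin, newly closed wounds (day 0), and covered and uncovered wounds at day 5. Which array came from which animal is not in the labels. The p-values thus reflect only the spread among arrays, pooled over all 6 groups of the series, and both ears of an animal may have entered the comparison.

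The epidermis is a layered sheet of keratinocytes that divide at its base, change their keratins and lipids as they move up, and end as the cornified layer that holds water in. When a wound closes, the new sheet lacks a mature barrier and loses water to the air for days to weeks. A film over the skin stops that loss and keeps the surface wet, and dressings of this kind are used clinically to reduce scars. The rabbit ear is an established model of such scarring. The array files give no gene for a probe, so keratinocyte or other cell markers could not be checked and probes are described by name, design class and sequence. In whole epidermis, fewer cells of a type and less RNA per cell cannot be told apart.

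Each probe is 60 bases long and stands for a contig, an assembled or single cDNA sequence. Names hold AF, AM or UN, and the files do not define these letters. On the array, AF contigs mostly carried 2 probes (7230 contigs). Each of the 673 AM probes carried the name of an AF contig with the suffix minus, and UN contigs came as a forward and a reverse-complement version with 1 probe each (4056 contigs with both). The following sequences belong to probes on which the results below turn, written 5′ to 3′ as deposited. The first set holds the fall with the smallest p in the brightest quintile of probes (UF_Ocu_AF_100023), the deepest AF and UN falls measured on every array (UF_Ocu_AF_101828 and UF_Ocu_UN_121601), a probe with no covered array above background (UF_Ocu_AF_102421) and the largest rise measured on every array (UF_Ocu_UN_119427).
UF_Ocu_AF_100023: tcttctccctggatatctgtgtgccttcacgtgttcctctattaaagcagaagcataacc
UF_Ocu_AF_101828: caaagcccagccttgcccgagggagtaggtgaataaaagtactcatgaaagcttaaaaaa
UF_Ocu_AF_102421: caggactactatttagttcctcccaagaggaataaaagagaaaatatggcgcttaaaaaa
UF_Ocu_UN_119427: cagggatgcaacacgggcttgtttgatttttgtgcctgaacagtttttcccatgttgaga
UF_Ocu_UN_121601: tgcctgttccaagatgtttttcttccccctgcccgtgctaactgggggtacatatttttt

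The second set holds the 2 probes of each of 2 contigs whose probes responded by different amounts to the cover.
UF_Ocu_AF_103873: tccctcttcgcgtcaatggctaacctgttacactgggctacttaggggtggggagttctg
UF_Ocu_AF_103874: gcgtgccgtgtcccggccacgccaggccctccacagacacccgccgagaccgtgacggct
UF_Ocu_AF_102772: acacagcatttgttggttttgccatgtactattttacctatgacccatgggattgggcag
UF_Ocu_AF_102773: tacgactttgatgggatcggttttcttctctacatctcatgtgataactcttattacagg

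The third set holds probes of opposite strands. Capitals mark the stretch that the next-named or preceding partner holds as its reverse complement: 54 bases in the first pair, 37 in the second, 18 in the third, and all 60 in the fourth.
UF_Ocu_AM_115100: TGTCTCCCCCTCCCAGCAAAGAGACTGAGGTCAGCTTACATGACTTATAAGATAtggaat
UF_Ocu_AF_103597: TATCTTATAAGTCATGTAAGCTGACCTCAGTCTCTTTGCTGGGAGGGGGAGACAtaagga
UF_Ocu_AM_114773: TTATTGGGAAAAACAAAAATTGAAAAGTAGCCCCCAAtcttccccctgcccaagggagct
UF_Ocu_AF_103760: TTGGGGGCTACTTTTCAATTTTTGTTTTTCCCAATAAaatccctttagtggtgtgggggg
UF_Ocu_UN_120394: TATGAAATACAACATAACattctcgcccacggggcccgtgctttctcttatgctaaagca
UF_Ocu_UN_119870: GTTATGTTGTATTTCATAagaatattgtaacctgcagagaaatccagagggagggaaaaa
UF_Ocu_UN_115639: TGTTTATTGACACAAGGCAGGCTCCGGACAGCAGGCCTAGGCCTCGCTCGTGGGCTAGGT
UF_Ocu_UN_116532: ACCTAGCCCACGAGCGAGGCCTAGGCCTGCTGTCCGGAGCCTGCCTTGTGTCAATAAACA

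A covered array detected 41.5% to 50.4% of its probes, meaning well above background, against 41.1% to 45.1% for an uncovered array. Levels are log2 processed signals minus the array's 75th percentile over the 7446 probes that every one of the 30 arrays detected, so 0 is a bright probe, and a change is the covered minus the uncovered mean in log2 units. On these values the correlation between covered arrays was 0.966 to 0.994 and between uncovered arrays 0.946 to 0.988, against 0.922 to 0.982 between arms. The first principal component of the 11 arrays (36.0% of the variance) placed covered arrays at 30.3 to 52.3 and uncovered arrays at -64.0 to -18.7, with no overlap. The second (30.1%) set 4 arrays apart, covered replicates 4 and 5 at 30.8 and 33.1 and uncovered replicates 2 and 6 at 52.3 and 55.4. Counts are therefore also given without these 4 arrays, which leaves 3 covered and 4 uncovered arrays.

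Across the epidermal transcripts measured here, 2012 of 12342 tested probes (16.3%) passed an adjusted p under 0.05 in a limma fit of all 30 arrays, with Benjamini-Hochberg adjustment over all tested probes. Of these, 1120 were higher (9.07%) and 892 lower (7.23%) under cover. At 2-fold or more 734 probes were called (5.95%). Covered and uncovered arrays did not overlap at 1594 tested probes (12.9%), with the covered arrays above at 825 (6.68%) and below at 769 (6.23%). Without the 4 arrays that stood apart, 126 probes were higher and 301 lower. With another background correction (normexp on the raw signals) 320 were higher and 494 lower, so rises made up 55.7% of the calls as scaled here, 39.3% with normexp and 29.5% without the 4 arrays. Within the 3 slides that carried 1 array of each arm, 1515 of 1530, 1709 of 1763 and 1175 of 1224 probes, each set called with the slide left out, had the direction of the call.

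Rises were many and small. The median log2 change was 0.75 among the higher probes and -1.04 among the lower ones, against 0.04 over all tested probes. Of the rises, 268 were under 1.5-fold, 589 from 1.5-fold to under 2-fold, 256 from 2-fold to under 4-fold, 6 from 4-fold to under 8-fold and 1 at 8-fold or more. Of the falls, 142 were under 1.5-fold, 279 from 1.5-fold to under 2-fold, 332 from 2-fold to under 4-fold, 81 from 4-fold to under 8-fold, 27 from 8-fold to under 16-fold and 31 at 16-fold or more. The standard error of a probe's log2 change had a median of 0.26. The median SD between replicates was 0.28 log2 units on covered arrays and 0.42 on uncovered arrays.

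Calls were counted by design class. In class AF 925 of 9617 tested probes were higher (9.62%) and 798 lower (8.30%). In class UN 189 of 2569 were higher (7.36%) and 82 lower (3.19%), and in class AM 6 of 156 were higher (3.85%) and 12 lower (7.69%). Falls were thus 46.3% of the calls in AF, 30.3% in UN and 66.7% in AM, but the UN falls were deep, with a median log2 change of -1.34, and at 2-fold or more UN counted 57 rises and 54 falls. The excess of rises over falls in UN turned round with normexp (1.25% higher, 1.79% lower) and without the 4 arrays (0.817% and 1.36%). In AF it turned round under those 2 settings and 3 more: without a filter on dim probes (3.78% and 4.05%), with only the day 3 arrays in the fit (6.51% and 7.17%), and with GC-content bins aligned between arrays (8.35% and 9.57%). The differences between classes were not tested.

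The classes also differ in how many probes give a signal. On the 11 arrays 47.9% of AF probes were well above background throughout, against 17.8% of UN and 8.77% of AM probes. None of the 11 arrays had a signal well above background for 35% of AF, 68.9% of UN and 79.0% of AM probes. A probe that is dim in both arms has no measured change, so the class shares rest on 66.1%, 31.6% and 23.2% of the AF, UN and AM probes on the array.

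Among AF probes well above background on all 11 arrays, the 3 deepest falls were 102-fold, 82-fold and 78.1-fold. UF_Ocu_AF_101828 had levels of -0.41, -3.22, -4.93, -2.34 and -5.68 on covered replicates 1 to 5, against 2.58, 3.38 and 4.19 as the lowest, median and highest uncovered level. It fell by 6.67 log2 units (SE 0.68, limma adjusted p = 6.01e-08), and the covered arrays spread widely below all uncovered ones, with replicate 1 highest. For UF_Ocu_AF_107344, covered replicates 1 to 5 measured -4.68, -4.19, -4.96, -2.77 and -4.64, and the uncovered arrays lay between 1.33 and 3.32 with a median of 2.04. Its change was -6.36 (SE 0.40, limma adjusted p = 4.96e-12), and the arms lay far apart on every array. UF_Ocu_AF_108489 stood at -4.31, -3.15, -5.49, -1.40 and -4.91 on the 5 covered arrays and, as lowest, median and highest, at 1.22, 2.59 and 3.39 on the 6 uncovered arrays. Its log2 change was -6.29 (SE 0.68, limma adjusted p = 2.02e-07), with covered replicate 4 nearest to the uncovered arrays. All 3 were also lower at day 5, with log2 changes of -7.35, -5.73 and -5.75 in the same order.

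The largest AF rises measured on all arrays were under 4-fold. Covered arrays placed UF_Ocu_AF_112109 at -1.87, -2.44, -2.69, -0.94 and -0.65, and the uncovered levels ran between -5.09 and -2.68 around a median of -3.66. The arms overlap at their edges, and the change of 1.93 (SE 0.60, limma adjusted p = 0.0281) rested on single arrays: the adjusted p was 0.0785 without covered replicate 4, 0.0882 without covered replicate 5, 0.0841 without uncovered replicate 6 and 0.476 without the 4 arrays. UF_Ocu_AF_111988 had levels of -2.65, -2.70, -2.46, -2.92 and -2.75 on covered replicates 1 to 5, against -5.71, -4.36 and -3.61 as the lowest, median and highest uncovered level. Every covered array was above every uncovered one, with a rise of 1.80 (SE 0.33, limma adjusted p = 0.0004). For UF_Ocu_AF_101997, covered replicates 1 to 5 measured -2.92, -2.58, -2.75, -2.47 and -3.45, and the uncovered arrays lay between -5.42 and -3.94 with a median of -4.61. The arms again did not overlap (change 1.80, SE 0.29, limma adjusted p = 0.000108), and with normexp the adjusted p was 0.0807.

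In class UN the largest rise measured on every array exceeded those of class AF. UF_Ocu_UN_119427 stood at 1.58, 1.53, 1.68, 2.38 and 2.17 on the 5 covered arrays and, as lowest, median and highest, at -2.13, -0.44 and 0.12 on the 6 uncovered arrays. All covered arrays were above all uncovered ones, and the probe rose by 2.60 (SE 0.39, limma adjusted p = 3.79e-05), or 6.06-fold. At day 5 its log2 change was 0.02, but the difference between the days did not pass the test (limma adjusted p = 0.0581). Covered arrays placed UF_Ocu_UN_119077 at -1.13, -1.05, -1.18, -1.18 and -1.01, and the uncovered levels ran between -4.00 and -1.92 around a median of -2.65. UF_Ocu_UN_118064 had levels of -0.49, -0.61, 0.07, -0.92 and -0.62 on covered replicates 1 to 5, against -4.14, -1.91 and -1.36 as the lowest, median and highest uncovered level. Both rose with no overlap between the arms, by 1.73 (SE 0.31, limma adjusted p = 0.000331) and 1.73 (SE 0.37, limma adjusted p = 0.00226). Uncovered arrays spread more widely than covered arrays at all 3.

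The UN falls were larger. For UF_Ocu_UN_121601, covered replicates 1 to 5 measured -1.91, -3.37, -3.29, -3.43 and -3.48, and the uncovered arrays lay between 0.01 and 3.24 with a median of 2.38. It fell by 5.19 log2 units (SE 0.50, limma adjusted p = 2.11e-08), 36.5-fold, and covered replicate 1 lay nearest to the uncovered arrays. UF_Ocu_UN_117997 stood at -2.28, -2.99, -3.41, -3.95 and -3.84 on the 5 covered arrays and, as lowest, median and highest, at -1.63, 0.93 and 2.33 on the 6 uncovered arrays. Covered arrays placed UF_Ocu_UN_116568 at -1.34, -1.61, -2.05, -2.33 and -2.0, and the uncovered levels ran between -1.13 and 2.14 around a median of 0.73. These fell by 4.10 log2 units (SE 0.54, limma adjusted p = 5.28e-06) and 2.59 log2 units (SE 0.36, limma adjusted p = 1.76e-05), and in both the lowest uncovered array lay close above the highest covered one.

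Only 18 AM probes were called, and 3 of 6 rises and 8 of 12 falls reached 2-fold. UF_Ocu_AM_115100 had levels of -2.34, -2.33, -2.71, -3.24 and -2.93 on covered replicates 1 to 5, against -1.82, 0.20 and 2.28 as the lowest, median and highest uncovered level. It fell by 3.01 log2 units (SE 0.45, limma adjusted p = 4.59e-05), with the uncovered arrays spread widely above all covered ones. For UF_Ocu_AM_114773, covered replicates 1 to 5 measured -4.57, -4.66, -4.95, -5.31 and -5.47, and the uncovered arrays lay between -4.15 and -0.57 with a median of -2.50. The fall of 2.65 log2 units (SE 0.61, limma adjusted p = 0.0034) had an adjusted p of 0.13 without the 4 arrays. UF_Ocu_AM_115186 stood at -4.07, -3.96, -4.03, -3.27 and -4.05 on the 5 covered arrays and, as lowest, median and highest, at -3.02, -2.46 and -0.93 on the 6 uncovered arrays. Its fall was smaller, 1.58 (SE 0.32, limma adjusted p = 0.00124), and at day 5 the same probe changed by -0.17 and did not pass the test. The difference between the days did not pass the test either.

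The AM rises named by the same rule were small. Covered arrays placed UF_Ocu_AM_114635 at -4.23, -3.82, -3.82, -4.17 and -4.53, and the uncovered levels ran between -5.71 and -4.84 around a median of -5.41. It rose by 1.19 (SE 0.22, limma adjusted p = 0.000438). UF_Ocu_AM_114657 had levels of -3.75, -3.60, -3.75, -3.07 and -3.44 on covered replicates 1 to 5, against -4.56, -4.35 and -4.16 as the lowest, median and highest uncovered level. The arms did not overlap here either, at a rise of 0.81 (SE 0.16, limma adjusted p = 0.000853). For UF_Ocu_AM_114814, covered replicates 1 to 5 measured -1.97, -2.07, -1.91, -1.73 and -1.73, and the uncovered arrays lay between -2.75 and -2.08 with a median of -2.23. This small difference of 0.45 (SE 0.15, limma adjusted p = 0.0438) lost its call when any of 6 single arrays was left out, with adjusted p from 0.0605 to 0.115. None of the 3 rises passed the test with normexp, at adjusted p of 0.203, 0.192 and 0.278.

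**Figure D1:**
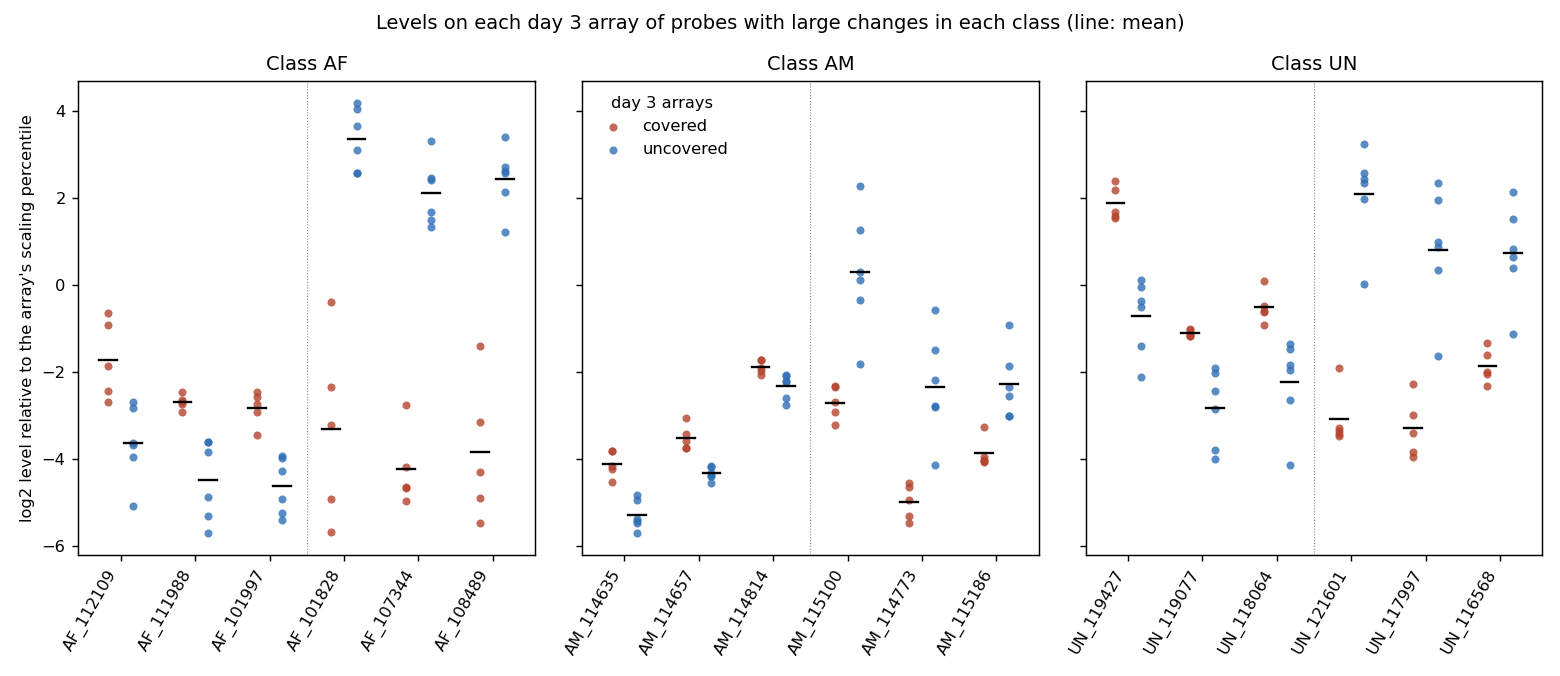
Each point is the log2 level of a probe on 1 day 3 array, relative to the array's scaling percentile; covered arrays stand left of uncovered arrays, lines are means, and each panel holds 3 rises and 3 falls of a design class. The falls of UF_Ocu_AF_101828 (-6.67) and UF_Ocu_UN_121601 (-5.19) exceed every rise shown, of which UF_Ocu_UN_119427 (2.60) is the largest.

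Calls were more frequent in the 2 brightest quintiles of probes than in the 3 others. The tested probes were put in quintiles (5 bins of equal size) by their mean level over all 30 arrays. From the dimmest to the brightest quintile, 7.01%, 7.50%, 9.97%, 12.7% and 8.22% of the probes were higher under cover, and 5.27%, 5.15%, 6.69%, 7.33% and 11.7% lower. As scaled here, rises outnumbered falls in the 4 dimmer quintiles, but falls outnumbered rises in all 5 without the 4 arrays (1.05% higher and 2.11% lower in quintile 1, 1.66% and 2.39% in quintile 4), in quintiles 1 to 3 with normexp (0% and 0.567% in quintile 1, 0.770% and 4.01% in quintile 3) and in quintile 1 without covered replicate 4 (4.82% and 5.14%). Without uncovered replicate 6, the higher share was 6.44% in quintile 3 and 5.39% in quintile 5. In the brightest quintile, where falls outnumbered rises, the order turned round with quantile normalization (11.3% higher, 9.32% lower) and with the authors' deposited values (13.6% and 11.1%). Levels taken from the 11 day 3 arrays alone gave 9.32% higher and 11.6% lower in the brightest quintile.

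Error changed with level as well. The median SD between replicates fell from the dimmest to the brightest quintile, through 0.50, 0.37, 0.27, 0.21 and 0.17 on covered arrays and 0.57, 0.50, 0.43, 0.36 and 0.28 on uncovered arrays. The median standard error of a change was 0.37 in the dimmest and 0.17 in the brightest quintile, so a smaller change can pass the test among bright probes. At 2-fold or more the dimmest quintile held 87 rises and 105 falls and the brightest 29 rises and 88 falls. Within AF the brightest quintile had 8.43% higher and 12.4% lower and the fourth 12.6% and 7.70%. Within UN the same quintiles had 6.58% and 5.76%, and 13.3% and 4.94%.

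**Figure D2:**
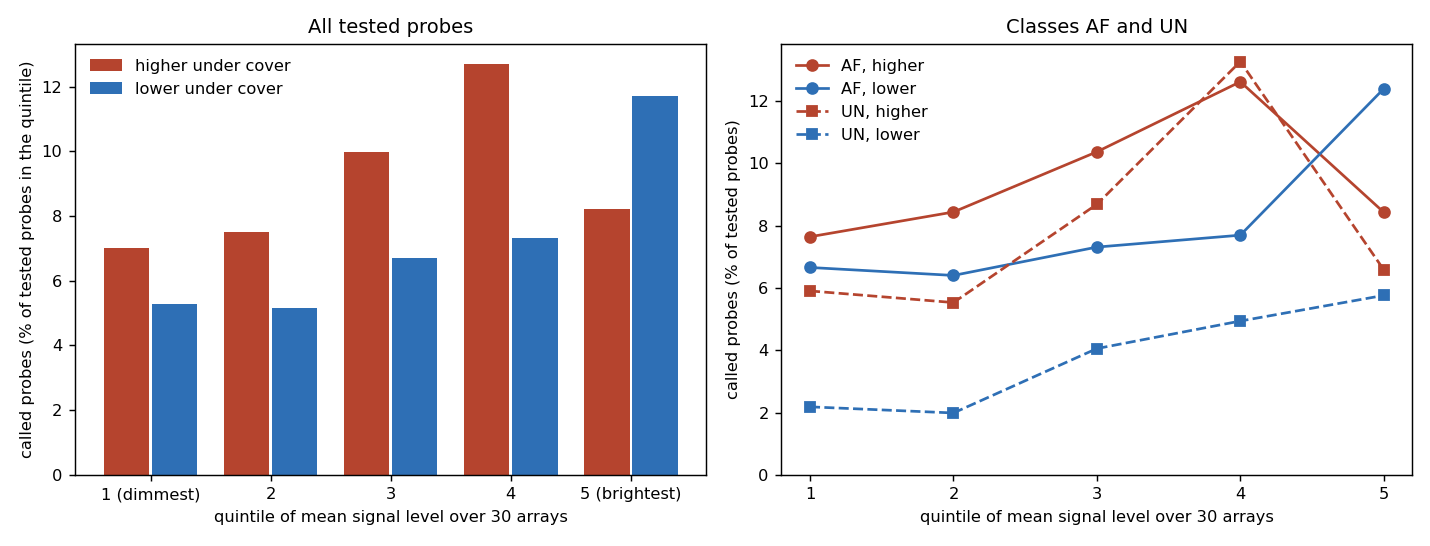
Bars give the share of tested probes called higher or lower under cover in each quintile of mean signal level, and the second panel gives the shares for classes AF and UN. Rises peak in the fourth quintile (12.7%) and falls in the brightest (11.7%).

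The fall with the smallest p in the brightest quintile came from a contig that fell at both probes. UF_Ocu_AF_100023 stood at -2.06, -2.17, -2.22, -2.09 and -2.36 on the 5 covered arrays and, as lowest, median and highest, at 0.83, 1.59 and 2.26 on the 6 uncovered arrays. It fell by 3.76 log2 units (SE 0.20, limma adjusted p = 4.52e-13), 13.5-fold. Its mean level was -2.18 ± 0.12 in covered wounds (SD, n = 5) and 1.58 ± 0.49 in uncovered wounds (SD, n = 6), beside 0.28 ± 0.19 in newly closed wounds (n = 6) and -2.46 ± 0.17 in unwounded skin (n = 2). Covered arrays placed UF_Ocu_AF_100024 at -3.97, -3.90, -4.25, -3.96 and -4.02, and the uncovered levels ran between -1.24 and 0.19 around a median of -0.49. This second probe of the same contig, in the fourth quintile, fell by 3.52 log2 units (SE 0.20, limma adjusted p = 7.3e-13). The contig was lower at day 5 too, with log2 changes of -3.14 and -2.96 at its 2 probes.

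The rises with the smallest p in the 2 brightest quintiles were about 2-fold. UF_Ocu_AF_109982 had levels of 1.13, 1.02, 1.26, 1.42 and 1.51 on covered replicates 1 to 5, against 0.18, 0.21 and 0.36 as the lowest, median and highest uncovered level. For UF_Ocu_AF_101215, covered replicates 1 to 5 measured -1.68, -1.83, -1.71, -1.07 and -1.16, and the uncovered arrays lay between -3.14 and -2.26 with a median of -2.64. Neither probe overlapped between arms, and they rose by 1.03 (SE 0.16, limma adjusted p = 3.52e-05) and 1.22 (SE 0.17, limma adjusted p = 1.19e-05).

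In quintile 3 the fall with the smallest p was well above background on no covered array and on all 6 uncovered arrays. UF_Ocu_AF_102421 stood at -7.81, -7.85, -8.37, -6.82 and -7.02 on the 5 covered arrays and, as lowest, median and highest, at -1.07, -0.48 and 0.07 on the 6 uncovered arrays. As scaled here, the signal was at least 73.4-fold lower under cover (limma adjusted p = 3.55e-12). Such a bound sets the mean of the bright arm against, per dim array, either the signal of the probe itself or the lowest signal among detected probes, whichever is higher. This and the later bounds hold only for levels as scaled here. Across the settings varied, the log2 change of UF_Ocu_AF_102421 ran from -7.50 to -4.47. Covered arrays placed UF_Ocu_AF_103408 at -2.42, -2.63, -2.52, -2.42 and -2.0, and the uncovered levels ran between -4.13 and -3.47 around a median of -3.85. This rise of 1.43 (SE 0.17, limma adjusted p = 6.17e-07) had the smallest p in that quintile, and its arms did not overlap.

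In the 2 dimmest quintiles the same rule gave 2 rises and 2 falls. UF_Ocu_AF_109803 had levels of -7.10, -7.21, -7.92, -6.54 and -6.98 on covered replicates 1 to 5, against -3.06, -1.89 and -1.02 as the lowest, median and highest uncovered level. It was detected on 1 of 5 covered and all 6 uncovered arrays and passed the test (limma adjusted p = 4.52e-13), but the size of the fall is not well measured, at -5.17 as scaled here and -3.20 with the authors' deposited values. For UF_Ocu_AF_109325, covered replicates 1 to 5 measured -8.46, -8.73, -8.42, -9.28 and -8.48, and the uncovered arrays lay between -4.88 and -3.48 with a median of -4.41. It was at least 6-fold lower under cover as scaled here (limma adjusted p = 3.87e-10), as no covered array had it well above background. Across the settings varied, its log2 change ran from -4.57 to -1.61. UF_Ocu_UN_119960 stood at -4.66, -5.00, -4.81, -4.21 and -4.31 on the 5 covered arrays and, as lowest, median and highest, at -6.22, -5.77 and -5.64 on the 6 uncovered arrays. The rise of 1.27 (SE 0.17, limma adjusted p = 8.48e-06) did not pass with normexp (adjusted p = 0.602). Covered arrays placed UF_Ocu_UN_123176 at -7.39, -7.14, -7.24, -6.69 and -7.33, and the uncovered levels ran between -8.86 and -8.26 around a median of -8.49. This probe was well above background on 1 covered and no uncovered array, so its difference of 1.38 (SE 0.18, limma adjusted p = 2.78e-06) lies at the background and no fold is given.

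The base composition of the probes moved with the direction of change. Rises were AT-rich, with a median GC content of 36.7%, against 45% among falls and among probes that were not called. Probes with at most 35% GC were also brighter, with a median level of -2.36 against -4.42 above 55% GC. Their median standard error was 0.20 against 0.33, so a smaller change can pass the test among them. How far this moved the shares was not tested. Of probes with at most 35% GC 17.9% were higher and 6.72% lower. The shares of higher probes were 14.6%, 7.17%, 3.43%, 2.28% and 0.925% in the bins from 35% to 40%, 40% to 45%, 45% to 50%, 50% to 55% and above 55%, while the lower ones held 8.37%, 7.45%, 8.97%, 7.55% and 5.68%. The few rises above 45% GC depended on single arrays: without uncovered replicate 5 the last 3 higher shares were 1.32%, 1.09% and 0.330%, without covered replicate 4 they were 2.11%, 1.19% and 0.463%, and without covered replicate 5 they were 2.11%, 1.29% and 0.463%. Above 55% the share was also 0.463% without covered replicate 1. Without uncovered replicate 6, 11.4% were higher at 35% GC or less and 5.51% lower from 35% to 40%. In class UN the shares were 24.1% higher and 1.69% lower at 35% GC or less, and 0% higher and 3.74% lower above 55%.

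Over all tested probes the median log2 change followed the same course, at 0.19 in the most AT-rich and -0.11 in the most GC-rich bin. On single arrays the mean level of AT-rich minus that of GC-rich probes, relative to the mean over arrays, was 0.43 ± 0.11 on covered arrays (SD, n = 5) and 0.16 ± 0.29 on uncovered arrays (SD, n = 6), with overlap. It moved more between other groups, to -0.85 ± 0.20 on the 6 uncovered arrays of day 5. Within slides the median log2 differences, covered minus uncovered array, ran from 0.13 to -0.07 on slide 5 and from 0.14 to -0.30 on slide 9, from AT-rich to GC-rich, and the other way on slide 11, from 0.11 to 0.29. With the medians of the GC bins aligned between arrays, 11.9% of the most AT-rich probes were higher and 11.8% lower, and 2.31% and 4.43% of the most GC-rich. The alignment takes out any shift shared by the probes of a bin, so it cannot test the excess of rises. Without the 4 arrays 1.59% were higher and 2.96% lower in the AT-rich bin, and with normexp 5.26% and 4.09%. The excess of rises among AT-rich probes thus turned round without the 4 arrays and was kept, but smaller, with normexp. The part of base composition in single calls was not tested.

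**Figure D3:**
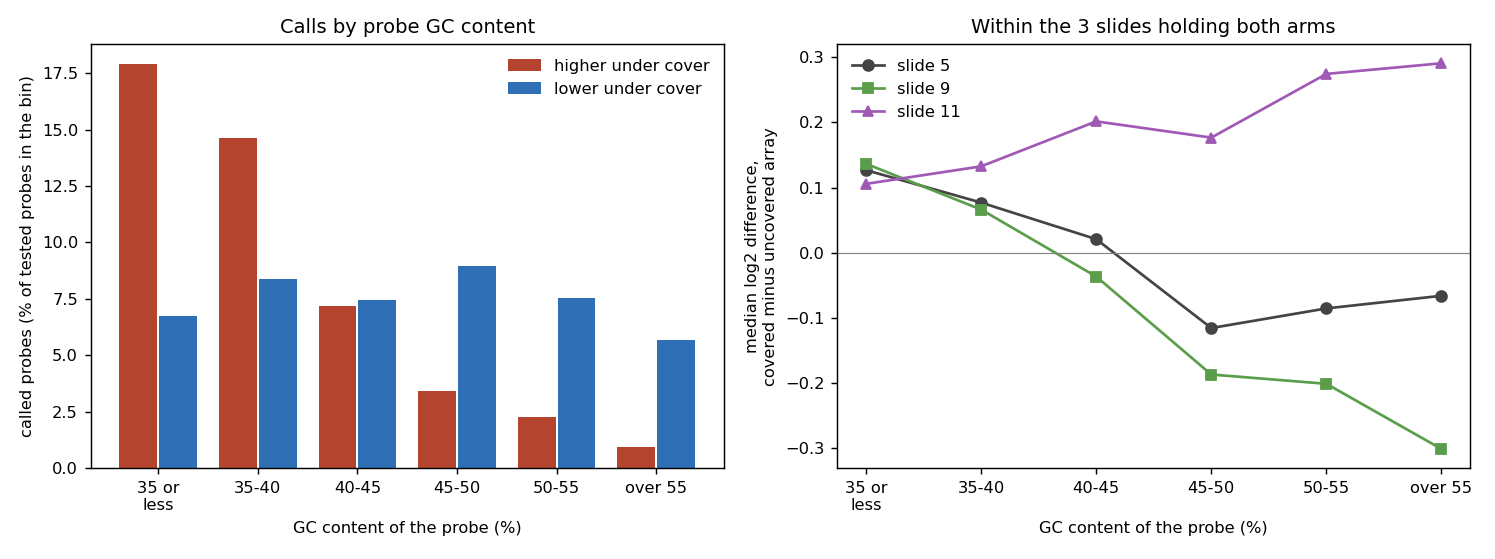
The left panel gives the share of tested probes called higher or lower under cover by GC content of the 60-base probe, and the right panel the median log2 difference, covered minus uncovered array, on the 3 slides with both arms. Rises drop from 17.9% to 0.925% with GC content, and slide 11 runs against slides 5 and 9.

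A second composition measure was the letters AATAAA, the core polyadenylation signal of vertebrate mRNAs, read on the printed strand of the probe. They were in 7.81% of all 23369 probes and in 10.6% of the tested ones. The share was 12.6% among probes higher under cover, 17.5% among lower ones and 9.76% among those not called. Within bins of base composition the higher, lower and uncalled shares were 13.4%, 18.8% and 15.6% at 35% GC or less, 15.9%, 27.8% and 18.6% from 35% to 40%, 7.61%, 16.7% and 7.09% from 40% to 45%, and 10.9%, 10.5% and 5.07% from 50% to 55%. In the bins with few rises, the lower and uncalled shares were 35.3% and 18.4% from 45% to 50%, and 6.98% and 3.18% above 55%. The lower share thus exceeded the uncalled share in every bin, while the place of the higher share differed between bins. From 50% to 55% the higher share rests on 5 of 46 probes. The differences between shares were not tested. The reverse complement TTTATT was in 3.96% of all probes, in 6.25% of the higher, 5.61% of the lower and 4.00% of the uncalled ones. In UN contigs where 1 orientation was detected on all 11 arrays and the other on none, AATAAA was in 12.8% of the 987 bright and 4.15% of the 987 dim probes. These are counts of letters, 72 probes hold both words, and no site was tested.

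Probes of one contig mostly moved together. Of 4228 contigs with 2 tested probes, 307 had both probes higher and 257 both lower (13.3% in all with both called the same way), 481 had 1 probe called, 1 had calls in opposite directions and 3182 had none. Across these contigs the 2 log2 changes correlated with r = 0.900, and 85.7% of pairs had the same sign; the points share arrays and RNA, so this describes agreement of probes and not of samples. The correlation was 0.831 where the dimmer probe lay in the dimmest quintile and 0.967 where it lay in the brightest. The median gap between the 2 changes was 0.12 log2 units. Where only 1 probe passed, the partner usually had a smaller change of the same sign, as in 458 of 481 pairs: the medians were 0.62 for the called and 0.44 for the uncalled probe in 266 rises, and -0.71 and -0.42 in 215 falls. At the 6 pairs of probes with identical sequence the median gap was 0.06.

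The contigs that fell most at both probes are listed by their first probe. UF_Ocu_AF_107343 had levels of -3.96, -3.44, -4.09, -2.14 and -4.08 on covered replicates 1 to 5, against 1.99, 2.69 and 3.83 as the lowest, median and highest uncovered level. Its partner UF_Ocu_AF_107344 is given above, and the pair changed by -6.29 (SE 0.38, limma adjusted p = 1.87e-12) and -6.36. For UF_Ocu_AF_112455, covered replicates 1 to 5 measured -1.62, -4.44, -5.09, -3.90 and -5.72, and the uncovered arrays lay between 1.02 and 3.16 with a median of 1.80. UF_Ocu_AF_112456 stood at 1.19, -1.06, -1.70, -0.25 and -2.09 on the 5 covered arrays and, as lowest, median and highest, at 4.25, 4.71 and 5.32 on the 6 uncovered arrays. This contig had changes of -6.06 (SE 0.57, limma adjusted p = 1.53e-08) and -5.58 (SE 0.47, limma adjusted p = 1.55e-09), and covered replicate 1 was highest of the covered arrays at both probes. Covered arrays placed UF_Ocu_AF_105736 at -1.36, -3.94, -4.42, -3.77 and -4.69, and the uncovered levels ran between 0.93 and 3.09 around a median of 1.53. UF_Ocu_AF_105737 had levels of -1.01, -3.87, -4.04, -4.37 and -5.09 on covered replicates 1 to 5, against 1.12, 1.70 and 3.27 as the lowest, median and highest uncovered level. Here too the arms did not overlap and covered replicate 1 stood nearest to the uncovered arrays, at changes of -5.36 (SE 0.61, limma adjusted p = 5.98e-07) and -5.50 (SE 0.61, limma adjusted p = 3.96e-07).

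The contigs that rose most at both probes were smaller in effect. For UF_Ocu_AF_101996, covered replicates 1 to 5 measured -2.49, -2.06, -2.28, -1.90 and -3.06, and the uncovered arrays lay between -4.90 and -3.52 with a median of -3.87. With UF_Ocu_AF_101997 above, it gave changes of 1.70 (SE 0.31, limma adjusted p = 0.000437) and 1.80. UF_Ocu_AF_113861 stood at -1.49, -1.45, -1.18, -2.79 and -1.65 on the 5 covered arrays and, as lowest, median and highest, at -4.58, -2.90 and -2.65 on the 6 uncovered arrays. Covered arrays placed UF_Ocu_AF_113862 at -1.25, -1.20, -0.97, -2.45 and -1.19, and the uncovered levels ran between -4.40 and -2.47 around a median of -2.75. The first overlapped between arms and the second did not, at rises of 1.65 (SE 0.34, limma adjusted p = 0.00127) and 1.73 (SE 0.31, limma adjusted p = 0.000309). UF_Ocu_AF_102106 had levels of 1.5, 1.32, 2.0, 0.88 and 1.37 on covered replicates 1 to 5, against -3.03, 0.14 and 0.80 as the lowest, median and highest uncovered level. For UF_Ocu_AF_102107, covered replicates 1 to 5 measured 0.57, 0.16, 1.22, -0.34 and 0.42, and the uncovered arrays lay between -4.27 and -0.05 with a median of -0.97. At both probes uncovered replicate 5 was far below the rest, and the changes of 1.72 and 1.79 (SE 0.52 and 0.55, limma adjusted p = 0.0236 and 0.0242) became 1.17 and 1.22 without it (adjusted p = 0.0584 and 0.0598). The call was also lost without covered replicate 3, at adjusted p of 0.0644 and 0.0727, and at the second probe without covered replicate 1 (0.0504).

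In 47 of the 4228 pairs (1.11%) the 2 probes responded by different amounts, by a limma test of the per-array difference of their levels with adjustment over all pairs. The gap exceeded 2-fold in 23 of the 47. Both probes were well above background on all 11 arrays in 24 of the 47, against 2934 of all 4228 pairs. The probe with the larger response was lower under cover in 29. At day 5, on other arrays, 40 of the 47 gaps had the same sign and 11 were called as well. Of all 4228 pairs 71 were called at day 5, and their share of equal signs between the days is not given. Leaving out single arrays moved the count between 20 and 75, with the low end without covered replicate 5. It was 24 without covered replicate 4, 28 without uncovered replicate 5 and 75 without covered replicate 3. Without the 4 arrays 9 pairs differed, and with normexp 6.

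The clearest such contig measured on all 11 arrays had 1 probe that fell and 1 that did not pass the test. UF_Ocu_AF_103873 stood at -3.10, -3.30, -3.36, -2.80 and -2.67 on the 5 covered arrays and, as lowest, median and highest, at -1.05, -0.57 and 0.28 on the 6 uncovered arrays. Covered arrays placed UF_Ocu_AF_103874 at -0.11, 0.37, -0.02, 0.04 and 0.04, and the uncovered levels ran between -0.32 and 0.95 around a median of -0.14. The first fell by 2.55 log2 units (SE 0.23, limma adjusted p = 6.63e-09) with separate arms, and the second had a change of 0.03 (SE 0.22, limma adjusted p = 0.957) with overlapping arms. The difference between them was -2.59 (SE 0.30, limma adjusted p = 6.18e-06), and at day 5 it was -1.40 and again called. UF_Ocu_AF_102772 had levels of -2.48, -2.25, -2.58, -2.16 and -2.17 on covered replicates 1 to 5, against -0.28, -0.01 and 0.48 as the lowest, median and highest uncovered level. For UF_Ocu_AF_102773, covered replicates 1 to 5 measured -3.93, -4.03, -3.96, -3.93 and -3.54, and the uncovered arrays lay between -3.30 and -2.74 with a median of -3.15. Both fell, by 2.39 log2 units (SE 0.24, limma adjusted p = 4.52e-08) and 0.81 log2 units (SE 0.19, limma adjusted p = 0.00405), and the gap of -1.57 (SE 0.20, limma adjusted p = 3.49e-05) was -1.19 at day 5. The sequences of these 4 probes, printed above, share no stretch of 15 or more bases within a pair.

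The other 2 pairs with the smallest p involve dim probes. UF_Ocu_AF_104860 stood at -4.46, -4.58, -4.78, -5.12 and -5.46 on the 5 covered arrays and, as lowest, median and highest, at -2.22, -1.78 and -1.09 on the 6 uncovered arrays. Covered arrays placed UF_Ocu_AF_104861 at -6.61, -6.75, -6.76, -6.99 and -7.59, and the uncovered levels ran between -7.77 and -6.19 around a median of -6.31. The first was well above background on 4 covered and 6 uncovered arrays and fell by 3.16 log2 units (SE 0.38, limma adjusted p = 1.08e-06), and the second on 1 array of each arm, with a change of -0.37; the gap was -2.79 (SE 0.39, limma adjusted p = 0.000132). In the pair of UF_Ocu_AF_101139 and UF_Ocu_AF_101140 the gap was -1.68 (SE 0.14, limma adjusted p = 2.36e-08), but no covered array had either probe well above background and 4 and 1 uncovered arrays did. UF_Ocu_AF_101139 was at least 2.26-fold lower under cover as scaled here (limma adjusted p = 2.56e-07), and its partner allows no fold. Across the settings varied, the log2 change of UF_Ocu_AF_101139 was as small as -0.914. With normexp this gap was -0.72 (adjusted p = 0.208).

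The only contig with calls in opposite directions was that of UF_Ocu_AF_103871 and UF_Ocu_AF_103872. UF_Ocu_AF_103871 had levels of -6.46, -6.92, -7.39, -5.22 and -4.79 on covered replicates 1 to 5, against -8.78, -7.94 and -6.44 as the lowest, median and highest uncovered level. For UF_Ocu_AF_103872, covered replicates 1 to 5 measured 1.06, 1.07, 1.1, 1.06 and 1.04, and the uncovered arrays lay between 1.17 and 1.75 with a median of 1.37. The first was well above background on 2 covered and no uncovered array, was at least 1.27-fold higher under cover (limma adjusted p = 0.0163) and overlapped between arms. The bright second probe fell by 0.37 log2 units (SE 0.12, limma adjusted p = 0.033) and had arms that did not overlap. The gap of 2.0 (SE 0.42, limma adjusted p = 0.0125) had an adjusted p of 0.0587 without covered replicate 4, 0.0742 without covered replicate 5, and 0.947 with normexp. The call of the second probe was lost without any of 8 single arrays, at adjusted p from 0.0518 to 0.0925, so the opposite directions rest on few arrays.

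**Figure D4:**
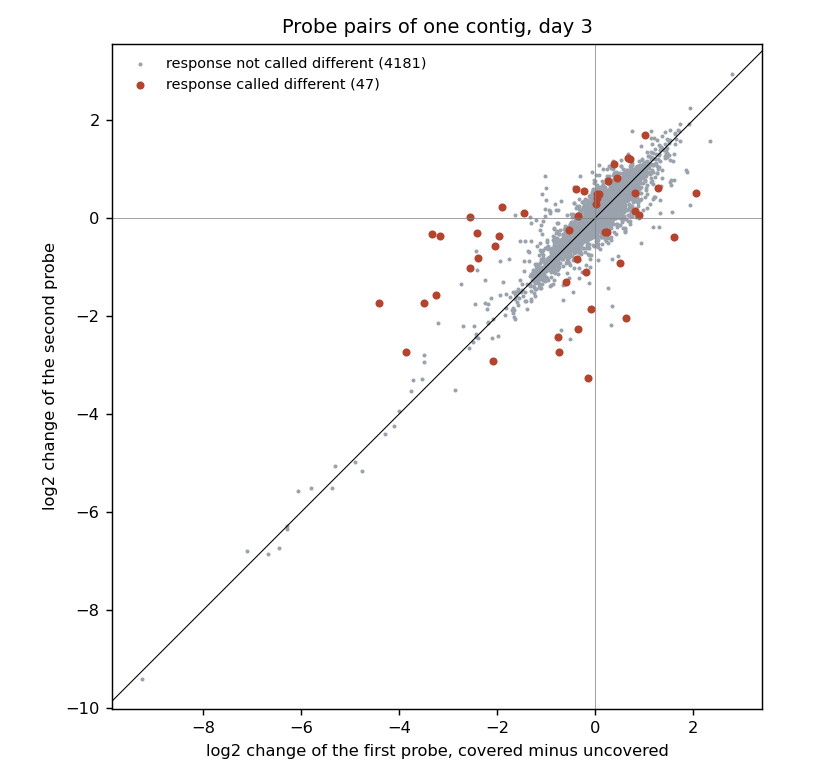
Each point is a contig with 2 tested probes; the axes give the log2 change, covered minus uncovered at day 3, of its first and second probe. Most of the 4228 points lie along the diagonal (r = 0.900), and the 47 contigs whose probes differed are marked.

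Probes of opposite strands were compared in the same way. Of 419 UN contigs with both orientations tested, 9 were called the same way at both, none in opposite ways, 47 at 1 and 363 at neither, and 60.4% of the signs were equal (r = 0.288 across contigs). Of 208 comparisons of an AM probe with an AF probe of its contig, 16 were called the same way at both, none in opposite ways and 46 at 1, with 68.3% equal signs (r = 0.467). A limma test of the difference called 12 of the 208 AM and AF comparisons (5.77%, 36 at an unadjusted p under 0.05) and 4 of the 419 UN contigs (0.955%, 52 unadjusted). An AM probe counts once for each tested AF probe of its contig, so the 208 comparisons and the 12 calls are not independent. Of 156 tested AM probes, 39 had no tested AF probe and gave no comparison. UF_Ocu_AM_115100 and UF_Ocu_AM_114773 were each called against both AF probes of their contig. The AM and AF count was 5 without covered replicate 4, 7 without covered replicate 5, 3 with normexp and 42 with the authors' deposited values. The UN count was 8 without uncovered replicate 2, 16 with slide as a random block, 8 with slide as a fixed block, 9 with scan day as a block, 18 with the authors' deposited values, 2 without the pair of slide 11 and 1 with normexp. Without the 4 arrays none of the AM and AF comparisons passed and 20 had an unadjusted p under 0.05. The difference between these shares of equal signs and the 85.7% of contig pairs was not tested. Strand partners also lay further apart in level: the median gap was 5.44 log2 units for AM and AF, 2.98 for UN and 0.89 for contig pairs. For AM and AF, r was 0.176 in 33 comparisons that share a stretch of 15 or more bases and 0.533 in the 175 others. For UN the 2 values were 0.293 and 0.267.

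Many UN contigs gave a signal in 1 orientation. In 691 of 4056 UN contigs (17%) the reverse-complement probe was detected on all 11 arrays and the forward one on none, and in 296 (7.30%) it was the other way round. Both were above on all arrays in 109 contigs (2.69%) and neither on any in 1951 (48.1%). Of the 673 AM probes 302 were well above background on none of the 11 arrays while an AF probe of the contig was on all. The reverse, an AM probe on all arrays with the AF probes on none, held for 22.

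At UF_Ocu_AM_115100 the strand partners parted. The probe fell under cover, as given above, and its 54 shared bases lie in UF_Ocu_AF_103597. UF_Ocu_AF_103597 stood at -4.70, -4.64, -4.89, -3.68 and -3.77 on the 5 covered arrays and, as lowest, median and highest, at -5.92, -4.73 and -3.32 on the 6 uncovered arrays. Covered arrays placed UF_Ocu_AF_103596 at -4.82, -4.46, -4.93, -3.90 and -3.98, and the uncovered levels ran between -6.12 and -3.47 around a median of -4.70. Neither AF probe passed the test, with changes of 0.32 (SE 0.49, limma adjusted p = 0.749) and 0.32 (SE 0.44, limma adjusted p = 0.726), and the arms overlapped at both. The AM response minus the AF response was -3.33 (SE 0.69) and -3.32 (SE 0.65), with a limma adjusted p of 0.00269 for each. Without the 4 arrays the difference from UF_Ocu_AF_103596 was -3.09 (adjusted p = 0.0893). These strand partners, and the UN contigs that follow, were chosen after their values were seen, while the AM probes were named by the rule of the largest changes.

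The second AM probe with this pattern was UF_Ocu_AM_114773, which shares 37 bases with UF_Ocu_AF_103760. UF_Ocu_AF_103760 had levels of -1.92, -1.64, -2.18, -1.49 and -1.57 on covered replicates 1 to 5, against -2.94, -2.03 and -1.55 as the lowest, median and highest uncovered level. Its change of 0.34 (SE 0.30, limma adjusted p = 0.517) did not pass, and the response differed by -2.99 (SE 0.52, limma adjusted p = 0.000919), or by -2.64 without the 4 arrays (adjusted p = 0.0893). The difference from UF_Ocu_AF_103761, the other AF probe of the contig, was also called, at -2.60 to -1.86 with single arrays left out. It did not pass without the 4 arrays (limma adjusted p = 0.156) or with normexp (limma adjusted p = 0.288). By contrast UF_Ocu_AM_115186 and both AF probes of its contig fell: by 1.58 at the AM probe, by 1.95 at UF_Ocu_AF_108443 (limma adjusted p = 0.00463) and by 1.57 at UF_Ocu_AF_108444 (limma adjusted p = 0.000596).

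Among UN contigs the pair UF_Ocu_UN_120394 and UF_Ocu_UN_119870 had the smallest p for a difference. For UF_Ocu_UN_120394, covered replicates 1 to 5 measured -8.24, -9.02, -8.45, -8.92 and -8.59, and the uncovered arrays lay between -6.94 and -3.36 with a median of -5.70. UF_Ocu_UN_119870 stood at -3.33, -3.62, -3.54, -2.80 and -2.72 on the 5 covered arrays and, as lowest, median and highest, at -3.77, -3.40 and -2.99 on the 6 uncovered arrays. The first was well above background on no covered and 5 uncovered arrays and at least 2.86-fold lower under cover (limma adjusted p = 9.97e-06), and the second did not pass the test (0.23, SE 0.16, limma adjusted p = 0.373). The gap of -3.54 (SE 0.44, limma adjusted p = 3.75e-06) rests on covered signals at background, and it was -1.96 with normexp (adjusted p = 0.0161) and -1.18 with the authors' deposited values (adjusted p = 0.00203). In the contig of UF_Ocu_UN_115639 and UF_Ocu_UN_116532, whose probes are exact reverse complements, both fell. Covered arrays placed UF_Ocu_UN_115639 at -3.66, -3.89, -3.34, -3.53 and -3.83, and the uncovered levels ran between -2.91 and -2.24 around a median of -2.49. UF_Ocu_UN_116532 had levels of 1.74, 1.70, 1.87, 1.39 and 1.28 on covered replicates 1 to 5, against 2.68, 2.90 and 3.32 as the lowest, median and highest uncovered level. No array of one arm reached the other, and the falls were 1.1 log2 units (SE 0.23, limma adjusted p = 0.00151) and 1.34 log2 units (SE 0.19, limma adjusted p = 1.29e-05).

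**Figure D5:**
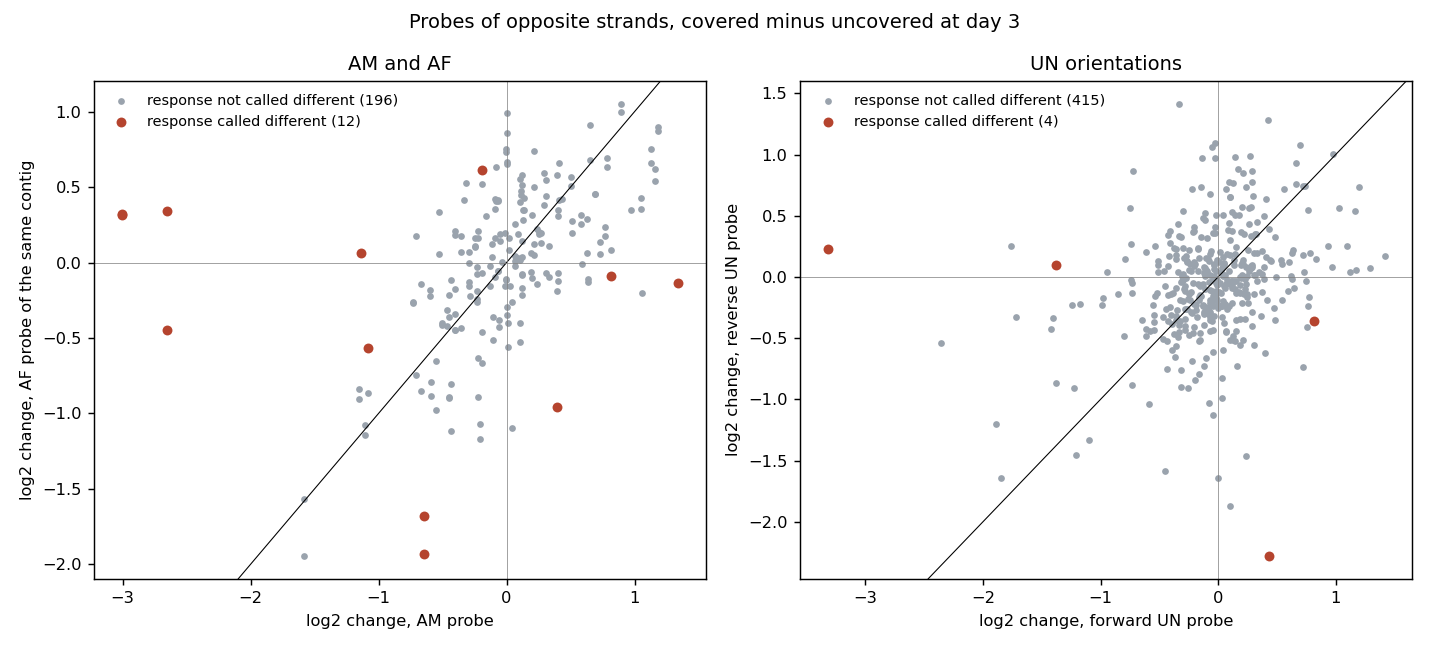
Each point is a pair of probes of opposite strands, with the log2 change, covered minus uncovered at day 3, of each on the axes; AM and AF probes of one contig are in one panel and UN orientations in the other. The 12 of 208 and 4 of 419 pairs whose response was called different are marked; across pairs r was 0.467 and 0.288.

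Some probes were measured in one arm only. Under cover 17 probes were well above background on all 5 arrays while no uncovered array reached that level. The reverse held for 11 probes. The choice of these probes fixes their direction, so no count of calls is given for them and their p-values are no separate support. Of the first kind UF_Ocu_UN_119795 had the largest bound as scaled here, at least 6.57-fold (limma adjusted p = 0.000529). UF_Ocu_AF_111877 was at least 3.36-fold higher (limma adjusted p = 4.72e-06). With normexp these 2 probes had adjusted p of 0.0961 and 0.255. Across the settings varied, their log2 changes were as small as 1.40 and 1.13. For UF_Ocu_AF_107989, covered replicates 1 to 5 measured -5.18, -5.30, -4.98, -4.16 and -4.95, and the uncovered arrays lay between -8.56 and -6.39 with a median of -7.19. As scaled here it was at least 3-fold higher under cover (limma adjusted p = 0.000327). With normexp its log2 change was 0.894 and did not pass the test (limma adjusted p = 0.57). UF_Ocu_AF_104470 stood at -7.63, -7.73, -7.63, -8.48 and -8.68 on the 5 covered arrays and, as lowest, median and highest, at -2.55, -2.34 and -1.72 on the 6 uncovered arrays. Covered arrays placed UF_Ocu_AF_104471 at -7.40, -7.71, -7.32, -8.47 and -8.77, and the uncovered levels ran between -2.69 and -1.80 around a median of -2.56. These 2 probes of one contig were at least 24.5-fold and 21.4-fold lower under cover as scaled here (limma adjusted p = 3.35e-10 and 2.01e-09). Across the settings varied, their log2 changes were as small as -3.08 and -2.96.

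At day 5, on arrays of other samples, 1696 of 12342 probes were called (13.7%). The covering effect itself differed between the days at 15 probes (0.122%) by the limma contrast of both effects. Of the probes named here, 2 were among the 15. These were UF_Ocu_AF_111877 and UF_Ocu_UN_123176, each with a limma adjusted p of 0.00837. No uncovered array of day 3 had either probe well above background, so the size of the difference is not measured. The count of 15 was 0 with normexp, where 661 probes had an unadjusted p under 0.05, and 0 without the 4 arrays, where 882 had.

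The names of the contigs carry a further grouping whose meaning is not given in the sources used here. Contigs whose name begins with R4 and not R4Sub held 6220 tested probes, of which 9.81% were higher and 10.2% lower, and the R4Sub contigs (282 probes) had 5.67% and 6.74%. Names beginning with naf (842 probes) had 12.7% higher and 3.21% lower, and those beginning with nbc (2519 probes) 9.21% and 2.98%. Names beginning with nag (1301) gave 7.23% and 4.53%, and nbd (646) 4.95% and 4.80%. For 562 clones with a tested probe in each of their x and y reads, the log2 changes correlated with r = 0.325 across clones. The x read was called in 95 of these clones and the y read in 79. Of the clones, 22 were higher at both reads, 4 lower at both and 2 called in opposite directions.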

How the data were processed

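Epidermal RNA of 30 samples was measured on 1-colour arrays, 1 sample each. The deposited scanner files give the intensity of every spot as written by Feature Extraction 10.1.1.1, background-subtracted and detrended by that program and not yet normalized, per the file headers. Other deposited columns hold flags for outlier, saturated and well-above-background spots. A deposited table of the series gives intensity values normalized by the authors; the submitters' processing notes name limma, and the background correction behind the table is not given in the sources used here.

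Control and outlier spots were left out and spots of a probe averaged on the log2 scale (20184 probes with 2 spots, 3185 with 1). Because under 50% of probes were detected on most arrays, the subtracted 75th percentile was taken over probes detected on all 30. Tests covered the 12342 probes that 2 or more arrays detected, and 22 of their values on day 3 arrays were missing. All 6 groups entered a limma 3.58.1 fit in R 4.3.3 (lmFit, eBayes, 2-sided, no block, Benjamini-Hochberg). Pairs were tested on per-array differences of 2 probes. The fit was tested on simulated data. The number of arrays limits the precision.

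Probes were named as the 3 largest rises and falls per class among those detected on all 11 arrays (1 per contig), the smallest p per direction in each quintile of level, the 3 contigs per direction with the largest change at both probes, the 4 pairs with the smallest p for a difference, contigs with opposite calls, and the 3 largest bounds per direction. This rule, the members and the lists were chosen with earlier results of these data known. The strand-partner test, the GC alignment, and the settings without the 4 arrays or without the pair of slide 11 were chosen after seeing the data. Scaling, background, filter, slide, scan day, replicate block, weights and single arrays were varied. Gene names are not given, since no table used here pairs probes with genes.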

Additional observations from a re-analysis of the deposited data

Results flagged for a closer look

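Single arrays stood far from the rest of their arm at 10 of 106 probe-and-arm groups, over 53 named probes; the rule used picks about 1 in 20 groups by chance. Low against the others were UF_Ocu_AF_101139 on covered replicate 4 (-9.52, others -8.81 to -8.70), UF_Ocu_AF_113862 on covered replicate 4 (-2.45, others -1.25 to -0.97), UF_Ocu_AF_104861 on uncovered replicate 2 (-7.77, others -6.67 to -6.19), and the 2 probes of 1 contig, UF_Ocu_AF_102106 (-3.03, others -0.52 to 0.80) and UF_Ocu_AF_102107 (-4.27, others -1.58 to -0.05), on uncovered replicate 5. High against the others were UF_Ocu_UN_121601 (-1.91, others -3.48 to -3.29) and UF_Ocu_AF_105736 (-1.36, others -4.69 to -3.77) on covered replicate 1, UF_Ocu_AM_115186 on covered replicate 4 (-3.27, others -4.07 to -3.96), UF_Ocu_AF_102773 on covered replicate 5 (-3.54, others -4.03 to -3.93) and UF_Ocu_AF_103874 on uncovered replicate 3 (0.95, others -0.32 to 0.10).

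The covering effect differed between day 3 and day 5 at UF_Ocu_AF_111877 (day 3 minus day 5, 3.21) and UF_Ocu_UN_123176 (1.44), each with a limma adjusted p of 0.00837. No uncovered array of day 3 had either probe well above background, so these sizes rest on signals at background. No probe passed this test with normexp (661 had an unadjusted p under 0.05) or without the 4 arrays (882).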

How the results depend on the processing

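The balance of rises and falls, 1120 higher and 892 lower as reported, turned round with normexp (320 and 494), without the 4 arrays (126 and 301), with only the day 3 arrays (757 and 799) and with GC bins aligned (981 and 1034), and all 3 counts moved. Called probes, 2012 in the reported fit, numbered 814 with normexp, 1345 without a filter on dim probes, 3745 with array weights, 427 without the 4 arrays, 1224 without the pair of slide 11, and 1442 (without uncovered replicate 6) to 2177 (without uncovered replicate 4) when 1 array was left out. Contig pairs that differed, 47 in the reported fit, numbered 6, 62, 193, 9 and 39 under the same settings, and 20 to 75 with 1 array left out. They numbered 79 with the authors' table, 20 among probes detected on all 11 arrays, 128 with slide as a random block (within-slide correlation 0.346), 112 with scan day as a block and 22 with only the day 3 arrays. Probes whose effect differed between days, 15 in the reported fit, numbered 0, 8, 296, 0 and 5 under the first settings, 25 with the percentile over all probes, 100 with quantile normalization, 197 with the authors' table, 5 among probes detected on all 11 arrays, 36, 109 and 60 with slide fixed, slide random and scan day, 7 with only the arrays of days 3 and 5, 43 with GC bins aligned, and 5 to 41 with 1 array left out. The cause of these shifts was not tested. Same-numbered replicates did not deviate together in every pair (r = 0.37, -0.40, 0.22, -0.46 and -0.24). Deviations also followed the 4 arrays, as covered replicates 4 and 5 deviated with uncovered replicates 2 and 6 (r = 0.41 to 0.51). This check therefore cannot tell whether the numbers pair the samples. The replicate block gave 1812 probes, 55 pairs and 8 day differences. Of 1312 values of 51 named called probes, 1242 kept direction and call, 70 lost the call (15 with normexp, 10 without the 4 arrays) and 0 reversed; 33 probes lost none. Within slides 153 values had 0 reversals, but these probes were chosen from a fit that held the same arrays, so this is no separate check. The size of the change moved by over 1.5 times at 14 of the 51 with the authors' table and at 11 with normexp. Signal near background limits the dim probes most: the median standard error was 0.37 in the dimmest quintile and 0.17 in the brightest.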
